A study of Mus musculus with 2 samples.

Results

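Maturation-stage ameloblasts are the epithelial cells that harden the enamel once its matrix has been laid down. They were taken here from single-cell RNA sequencing of mouse mandibular first molars and the tissues around them, and were chosen by their own transcripts. A cell was chosen when Ambn, Amtn, Odam and Klk4 together held at least 10 unique molecular identifiers (UMIs, 1 for each captured transcript) and at least 1% of its UMIs, with Col1a1 at no more than 2%. Cells under 200 genes or over 20% mitochondrial UMIs had been removed, and the rest are called kept cells. The rule found 986 of 17780 kept cells, with 654 from the Lipo-Clo and 332 from the Lipo-PBS library.

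All mice were C57BL/6J, and the tissue was collected at PN15.5. The Lipo-Clo mice had received clodronate liposomes into the peritoneum at 40 μg/g, first on PN3.5, again on PN6.5 and PN9.5 and last on PN12.5, and the Lipo-PBS mice an equal volume of vehicle liposomes on the same days. Clodronate liposomes are taken up by phagocytes and are used to remove macrophages. Each condition is 1 library of cells released with Dispase and Collagenase I, and the number of mice behind it is not given in the sources used here. The conditions could therefore not be compared by a test. Intervals are at the 95% level, exact Poisson for levels and ratios and Clopper-Pearson for shares, and cover counting error only.

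Ameloblasts pass through a secretory stage and a maturation stage. Secretory cells release the matrix proteins amelogenin (Amelx), ameloblastin (Ambn) and enamelin (Enam), which the metalloproteinase Mmp20 trims. In maturation the protease Klk4 breaks the matrix down, amelotin (Amtn) and Odam are laid into the basal lamina that joins the cells to the enamel, and the cells move calcium, phosphate and acid-base equivalents while they take up matrix fragments. After maturation the cells form the reduced enamel epithelium and then part of the junctional epithelium of the gum, which go on expressing Odam and Amtn.

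The libraries differed in ways that were not limited to the chosen cells. Mitochondrially coded genes held 0.582% of the UMIs of the chosen Lipo-Clo cells and 2.87% of those from Lipo-PBS. In the other kept cells the values were 0.354% and 1.70%, so the gap ran through both libraries. The chosen cells held 1904754 UMIs in Lipo-Clo (median 2470 UMIs and 1290.5 genes per cell) and 855677 in Lipo-PBS (median 2184.5 UMIs and 1143.5 genes). The libraries shared 30 cell barcodes, and none of these belonged to a chosen cell in both. The 4 genes of the rule held a median of 6.19% of a chosen cell's UMIs in Lipo-Clo and 4.35% in Lipo-PBS. The nearest Lipo-PBS cells to the limit held 1.004% and 1.008% inside it and 0.977% and 0.959% outside it, and the nearest Lipo-Clo cells 1.06% and 1.09% inside and 0.992% and 0.977% outside. These shares chose the cells and are given as a description.

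Beyond the rule, the chosen cells carried transcripts of ion transport and vesicle traffic in maturation, along with Amelx of the secretory stage. With Odam left out of the rule, 424 of the 654 Lipo-Clo and 130 of the 332 Lipo-PBS cells would still have been chosen. Most of the Lipo-PBS cells were therefore chosen through Odam. Among genes found in 25% or more of the chosen cells of both libraries, the 15 with the largest fold over the other kept cells were the 4 genes of the rule, Amelx, Calb1, Acp4, Cftr, Clu, Gm17660, Ggt1, Slc24a4, Wdr72, Cldn1 and Fxyd4. Slc24a4, a sodium, calcium and potassium exchanger of the ameloblast membrane, stood at 772 counts per 1000000 UMIs (CPM) in Lipo-Clo against 644 CPM for Lipo-PBS, at least 73.3-fold above the other kept cells in either library. Wdr72, which is needed for vesicle traffic in maturation, stood at 662 and 591 CPM. Cftr, a chloride and bicarbonate channel, stood at 552 and 479 CPM and was at least 86.7-fold above the other kept cells. Erythroid cells that were not chosen served as a measure of free RNA, since they should lack these genes. They held 4.03 and 4.53 CPM of Slc24a4 and 227 and 193 CPM of Odam, the rule gene with most free RNA. The 20 Lipo-Clo and 31 Lipo-PBS chosen cells that also passed the haemoglobin limit were left out of them, and with these cells Odam stood at 970.4 and 928 CPM and Slc24a4 at 15.9 and 13.9 CPM.

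**Figure D1:**
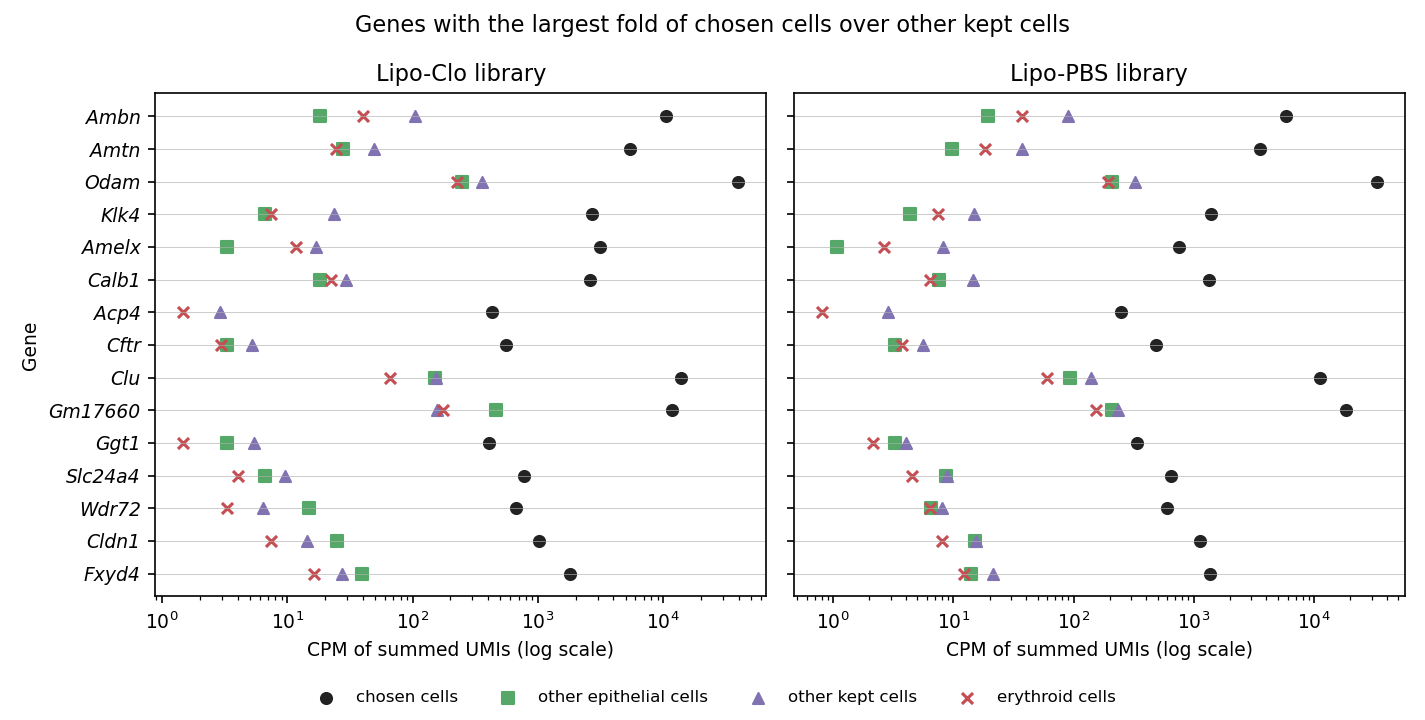
Summed level (CPM, log scale) of the 15 genes with the largest fold of the chosen cells over the other kept cells, in the Lipo-Clo library (left) and the Lipo-PBS library (right), with points for chosen cells, other epithelial cells, other kept cells and erythroid cells. The chosen cells lie far to the right of the other cells for each gene, with Slc24a4 at 772 and 644 CPM, and a gene listed at 0 has no point (Acp4 in other epithelial cells).

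The genes were detected across the chosen cells. Slc24a4 had a UMI in 65.7% of the chosen Lipo-Clo cells and 54.2% of the Lipo-PBS cells, against 1.40% and 1.86% of erythroid cells with deeper profiles (median 3807 and 3697 UMIs). Wdr72 had one in 67.0% and 60.2%, against 1.24% and 1.64%.

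Markers of the secretory stage and of neighbouring fates were mixed. Amelx stood at 3119 and 757 CPM and Mmp20 at 216 and 139 CPM, so that secretory genes were present. Enamelin, another of them, had a UMI in 9 Lipo-Clo and 4 Lipo-PBS cells. Apart from 1 Lipo-Clo cell with 105 Enam UMIs, no chosen cell had more than 1. The oral keratinocyte keratin Krt13 stood at 5.25 CPM in Lipo-Clo against 29.2 CPM for Lipo-PBS, and Krt19, of the junctional epithelium, at 5.25 and 18.7 CPM. Lamb3, a laminin chain of the attachment to the tooth, stood at 377 and 276 CPM, and Krt17 stood at 222 and 255 CPM. The transporter Slc26a4 had 3 and 1 UMIs in all. The odontoblast gene Dspp stood at 6.30 and 21.0 CPM.

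Most of the chosen cells formed 1 group among all cells. When the kept cells of both libraries were clustered together, 905 of the 986 chosen cells fell into 1 of 28 clusters, which held 1096 cells. The other 81 were spread over the other clusters. Of the 191 cells of that cluster that were not chosen, 77 passed every other limit but had over 2% Col1a1, 71 were under 1% on the rule genes and 43 had fewer than 10 UMIs of them. Amelx and Slc24a4, which the rule did not use, had higher levels in cells with a higher share of the rule genes. Amelx stood at 293 CPM in Lipo-Clo against 161 CPM for Lipo-PBS among cells with 1 to 2% of UMIs on the rule genes, at 2726 and 473 CPM among those with 2 to 5%, at 3153 and 1315 CPM among those with 5 to 10%, and at 7898 and 3227 CPM among those with 10% or more (71 and 10 cells). The Lipo-Clo level at 2 to 5% rests on 1 cell with 1061 Amelx UMIs and was 1090.2 CPM without it. Slc24a4 stood at 223 and 207 CPM in the lowest of these bands and at 1139 and 1398 CPM in the highest. Col1a1, the collagen gene of mesenchyme, stood at 6062 and 6380 CPM in the lowest band and at 708 and 592 CPM in the highest.

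The chosen cells were divided into 10 sub-states by clustering without the rule, mitochondrial and haemoglobin genes. In 5 of them the summed level of a marker list of another lineage reached at least 4 times its median over the sub-states. Sub-state 6, of 189 cells, was led by the fibroblast genes Mfap4, Wif1 and Angptl1 and stood at 7.73 times the median for mesenchyme markers. Sub-state 7, of 51 cells, was led by Stfa1, Retnlg and S100a8 and stood at 158 times the median for neutrophil markers. Sub-state 8 (35 cells) was led by the endothelial genes Cyyr1, Sox18 and Cdh5, sub-state 9 (27 cells) by the B cell genes Vpreb3, Cd79a and Ighm, and sub-state 10 (27 cells) by Myh11, Aoc3 and Rgs5 of mural cells. Scrublet, which scores likely doublets, placed 91 of these 329 cells among its highest scores, against 1 of the 657 cells of sub-states 1 to 5. By library these cells were 77 of the 654 chosen Lipo-Clo cells (11.8%) and 15 of the 332 chosen Lipo-PBS cells (4.52%). The comparison of the libraries is therefore given for all chosen cells. For part of the lists and genes it is given again for the 448 Lipo-Clo and 209 Lipo-PBS cells of sub-states 1 to 5. Erythroid and oral keratinocyte markers did not enter that division, and 12 of the 448 and 19 of the 209 cells had at least 20% of their UMIs on haemoglobin genes.

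**Figure D2:**
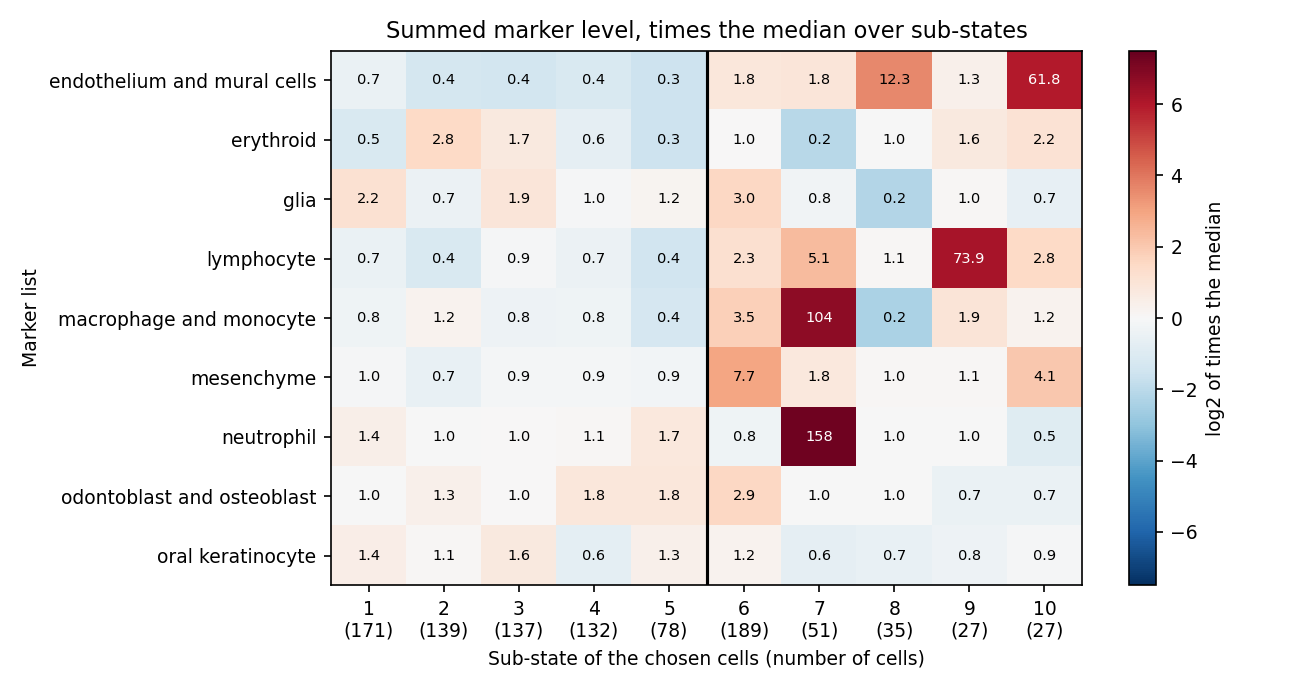
Summed level of each marker list (rows) in each sub-state of the chosen cells (columns, with the number of cells), as times its median over the 10 sub-states, printed in each box, with colour on a log2 scale. Sub-states 1 to 5, left of the line, have no list of mesenchyme, bone, vessel, immune or glial markers at 4 times the median or more, while sub-states 6 to 10 do, up to 158 times for neutrophil markers in sub-state 7, and the erythroid list reaches 2.82 times in sub-state 2.

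Sub-states 1 to 5 differed in how much enamel matrix RNA they held. These genes entered the clustering, apart from those of the rule, so the levels are a description. Sub-state 1 (171 cells) was led by Lypd6b, Ext1, an enzyme of heparan sulfate synthesis, Cables1 and Slit2, with Amelx at 1117 CPM over both libraries. Sub-state 2 (139 cells) was led by haemoglobin genes and Cystm1, had the fewest genes per cell (median 650), and held Amelx at 1803 CPM. Sub-state 3 (137 cells) was led by Usp32, Ptpn22, Sparcl1, Gsta4 and Gm17660, and held Amelx at 413 CPM, Ambn at 4566 CPM and Klk4 at 964 CPM. These 3 levels were the lowest among sub-states 1 to 5. Sub-state 4 (132 cells) was led by Rasl11b and Slc34a2, a sodium-phosphate cotransporter, and held Amelx at 4273 CPM. Sub-state 5 (78 cells) was led by Cdk18, Rcan1, an inhibitor of calcineurin, Gpr155, the calcium-activated potassium channel Kcnn4 and Itgb6. It held Amelx at 4517 CPM, Klk4 at 5087 CPM and Calb1 at 5661 CPM. Keratin 5, which marks the epithelial origin, lay between 2171 and 3655 CPM in all 5.

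Cells of both libraries were found in each sub-state, though unevenly. Sub-state 3 held 70 Lipo-Clo and 67 Lipo-PBS cells, and sub-state 5 held 71 and 7. Leading genes of both sub-states also differed between the libraries, so their sizes are not read as a result, and a cluster that comes mostly from 1 library cannot be told apart from that library.

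Chosen cells made up a larger share of the Lipo-Clo library. They were 7.36% (6.83 to 7.92%) of the kept Lipo-Clo cells and 3.73% (3.35 to 4.15%) of the kept Lipo-PBS cells, a log2 ratio of 0.98 (0.79 to 1.17). For sub-states 1 to 5 the shares were 5.04% and 2.35%, a log2 ratio of 1.10 (0.86 to 1.35). Other epithelial cells, defined by Krt5 and Krt14, went the other way, at 1.68% (1.42 to 1.97%) of Lipo-Clo and 2.56% (2.25 to 2.91%) of Lipo-PBS. With the limit on the rule genes at 5% of UMIs the chosen shares were 4.49% and 1.48%, and with Odam left out of the rule 4.77% and 1.46%, which moved the log2 ratio to 1.60 and 1.71. The share was counted with genes whose levels also differed between the libraries, and dissection and digestion of 1 sample per condition can change it. It is a share of all kept cells, so it also depends on the numbers of other cells, and the treatment is used to remove macrophages. None of these was tested.

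**Figure D3:**
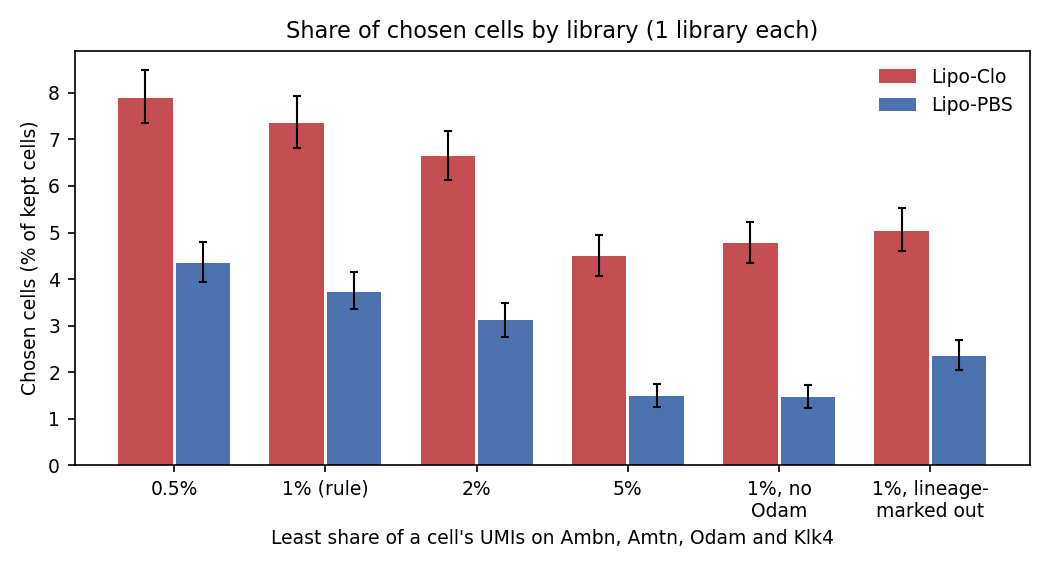
Chosen cells as a percentage of the kept cells of each library, under the rule (1%), other limits on the share of UMIs held by the 4 genes, the rule without Odam, and sub-states 1 to 5 alone, with bars for the 1 library of each condition and 95% Clopper-Pearson intervals. Lipo-Clo lies above Lipo-PBS under each limit drawn, at 7.36% and 3.73% under the rule.

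Enamel matrix and protease genes were higher in the chosen Lipo-Clo cells. Levels are CPM of UMIs summed per library, and ratios are Lipo-Clo over Lipo-PBS. Of the 14 measured genes of this list, 9 were in use, which means a UMI in at least 10% of the chosen cells of either library and at least 50 UMIs. Over all 4280 genes in use, 575 met the limit on cells only in Lipo-Clo and 205 only in Lipo-PBS. Of these, 4 chose the cells. Of the 5 others, 4 were higher in Lipo-Clo and 1 lower, with a median log2 ratio of 0.63, against 2360 higher, 1920 lower and a median of 0.05 over the 4280 genes in use. In sub-states 1 to 5 the median of these 5 was 0.65, and in the other kept cells it was 0.01. The 5 are not all independent of the choice of cells. Amelx had higher levels in cells with a higher share of the rule genes, and that share was itself higher in Lipo-Clo. With the 4 genes of the rule the counts were 8 and 1 and the median was again 0.63, which is given as a description.

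Amelogenin showed the largest gap among the genes of the list in use. Amelx stood at 3119 CPM (5941 UMIs) in Lipo-Clo against 757 CPM (648 UMIs) for Lipo-PBS, with a log2 ratio of 2.04 (1.92 to 2.16). In the other kept cells Amelx was also higher in Lipo-Clo, with a log2 ratio of 1.06 (0.82 to 1.29). A single Lipo-Clo cell held 1061 of those UMIs together with the 105 Enam UMIs, and it lay in the sub-state with mural genes. It was chosen through Ambn alone, with 217 UMIs of Ambn and 0 of Amtn, Odam and Klk4. Without that cell Amelx stood at 2569 CPM and the log2 ratio was 1.76 (1.64 to 1.88). In sub-states 1 to 5 it was 1.56 (1.41 to 1.71), and it was positive in each of them, from 0.43 (0.09 to 0.79) in sub-state 1 to 1.67 (1.29 to 2.08) in sub-state 2.

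Single cells showed the same difference. The median cell held 4.22 Amelx UMIs per 10000 in Lipo-Clo and 0 in Lipo-PBS, with upper quartiles of 17.4 and 8.84. Amelx had a UMI in 59.2% of Lipo-Clo cells and 43.4% of Lipo-PBS cells, against 3.11% and 0.874% of erythroid cells. After each cell was thinned to 1000 UMIs, which left out 100 Lipo-Clo and 65 Lipo-PBS cells, the shares were 46.0% and 32.6%. At least 10 Amelx UMIs were found in 96 Lipo-Clo and 18 Lipo-PBS cells.

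**Figure D4:**
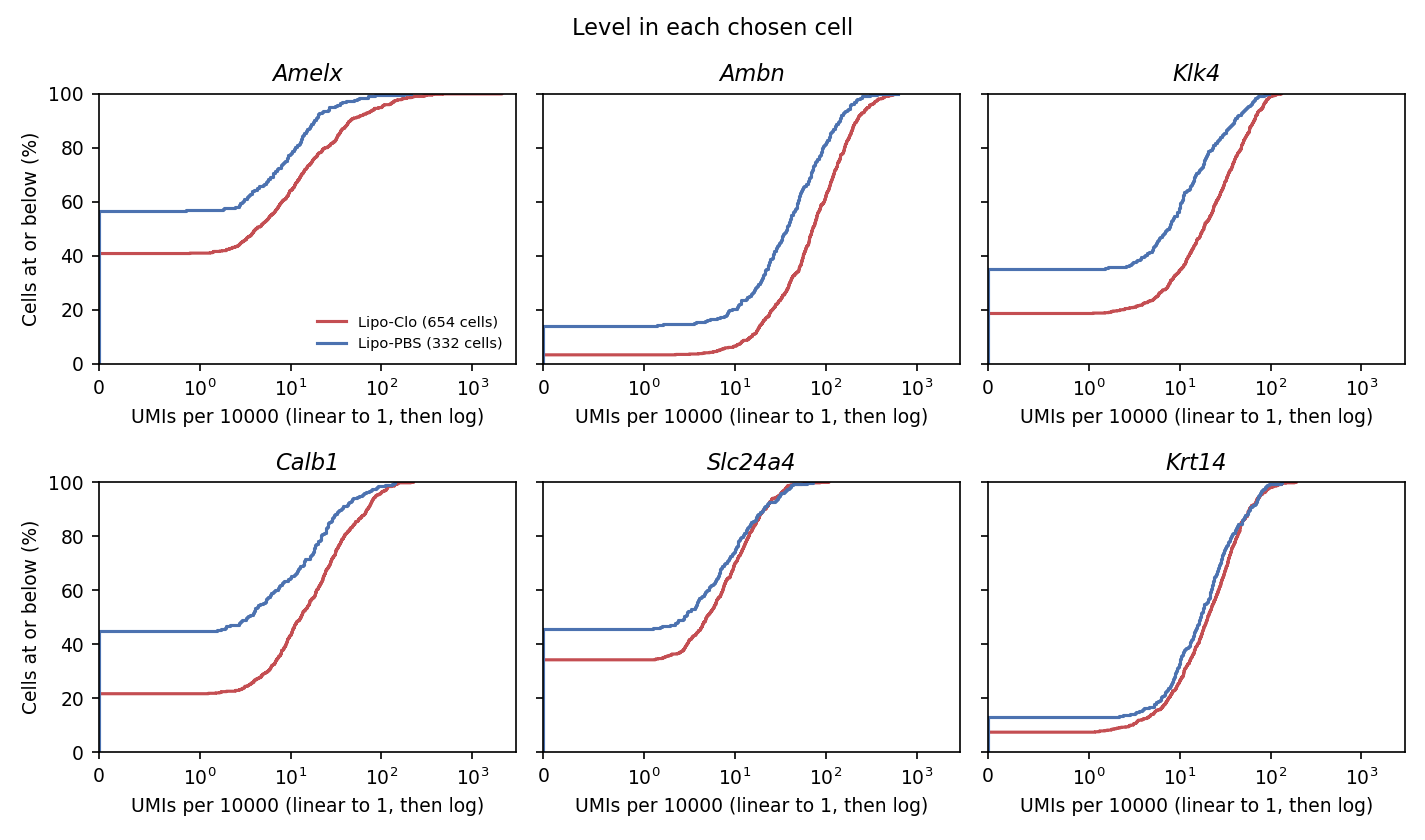
Cumulative percentage of chosen cells at or below each level (UMIs per 10000, linear up to 1 and log above) for Amelx, Ambn, Klk4, Calb1, Slc24a4 and Krt14 in Lipo-Clo (654 cells) and Lipo-PBS (332 cells). A curve further right means higher levels; the curves of Amelx, Ambn, Klk4 and Calb1 stand apart, with median Klk4 at 18.5 and 7.41, while those of Krt14, with medians of 20.4 and 17.0, lie close together.

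The genes of the rule are described without weight on their difference, since they chose the cells. Ambn stood at 10566 CPM in Lipo-Clo against 5848 CPM for Lipo-PBS, with a log2 ratio of 0.85. Klk4 stood at 2687 and 1391 CPM, a log2 ratio of 0.95. Amtn stood at 5417 and 3527 CPM, and Odam at 39871 and 33260 CPM, with log2 ratios of 0.62 and 0.26. The 4 genes thus differed by unequal amounts, and Odam least. The Odam ratio was −0.03 (−0.08 to 0.02) in sub-state 4, and 0.02 in all chosen cells with the limit at 5% of UMIs.

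Other enamel genes outside the rule were higher too. Acp4, an acid phosphatase whose loss causes thin enamel in people, stood at 432 CPM in Lipo-Clo against 248 CPM for Lipo-PBS, with a log2 ratio of 0.80 (0.58 to 1.03). Mmp20 stood at 216 and 139 CPM, a log2 ratio of 0.63 (0.34 to 0.94). By the share of UMIs on the rule genes, Mmp20 stood at 41.9 and 40.1 CPM in cells with 1 to 2%. It stood at 155 and 111 CPM at 2 to 5%, 265 and 226 CPM at 5 to 10%, and 408 and 215 CPM at 10% or more. Fam20a, a pseudokinase that aids the phosphorylation of enamel proteins, stood at 147 and 105 CPM, a log2 ratio of 0.48 (0.14 to 0.84). Its partner kinase Fam20c was the member that was lower, at 101 and 106 CPM, and its interval spanned 0 (−0.44 to 0.31). Enam lay outside the genes in use. Without the cell described above it had 8 UMIs in Lipo-Clo and 4 in Lipo-PBS, which sets no direction.

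Genes known from inherited enamel defects showed the same direction. Of 29 measured, 21 were in use, 20 were higher in Lipo-Clo and 1 was lower, and the median log2 ratio was 0.48. Without the 3 of them that belong to the rule, 17 of 18 were higher, with a median of 0.42 (0.38 in sub-states 1 to 5 and −0.08 in the other kept cells). These 18 include Amelx and so are not all independent of the choice of cells either. This list shares Amelx, Ambn, Mmp20, Klk4, Acp4, Amtn and Fam20a with the list of matrix genes. Among its other members, Itgb6, the epithelial integrin chain that activates latent TGF-β, stood at 103 CPM in Lipo-Clo against 40.9 CPM for Lipo-PBS, with a log2 ratio of 1.34 (0.81 to 1.90). It had a UMI in 20.8% and 9.64% of the cells, against 6.71% and 7.02% of other epithelial cells, and so it was in use through Lipo-Clo alone. Cnnm4, a magnesium transporter, stood at 86.6 and 54.9 CPM (log2 ratio 0.66, 0.18 to 1.16). Sp6, a transcription factor of the enamel epithelium, stood at 94.5 and 59.6 CPM (0.66, 0.21 to 1.14). The member that was lower was Lama3, a laminin chain, at 387 and 424 CPM (−0.13, −0.31 to 0.05), while Col17a1 stood at 564 and 563 CPM. Itgb6 led a sub-state of mostly Lipo-Clo cells, and with sub-states held at equal proportions in the libraries its log2 ratio was 0.66.

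Calcium genes were mostly higher in Lipo-Clo. Maturation ameloblasts take calcium in through store-operated channels, buffer it and pass it to the enamel. Of 19 measured genes of calcium entry, stores and buffering, 14 were in use, 12 were higher in Lipo-Clo and 2 lower, with a median log2 ratio of 0.33 (0.35 in sub-states 1 to 5, −0.19 in the other kept cells). Calb1, the calcium buffer calbindin, stood at 2597 CPM in Lipo-Clo against 1338 CPM for Lipo-PBS, with a log2 ratio of 0.96 (0.86 to 1.05). Its free RNA in erythroid cells was 22.4 and 6.40 CPM, and its log2 ratio in the other kept cells was 1.02. Within sub-states Calb1 was higher in 4 of the 5, up to 1.18 (0.68 to 1.71) in sub-state 3, and stood at −0.14 (−0.44 to 0.16) in sub-state 5. With the sub-states held at equal proportions in the libraries it was 0.56.

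The calcium sensors of the endoplasmic reticulum were higher as well. Stim2 stood at 326 CPM in Lipo-Clo against 158 CPM for Lipo-PBS, with a log2 ratio of 1.04 (0.77 to 1.32), and at −0.48 in the other kept cells. Stim1 stood at 291 and 199 CPM (0.55, 0.30 to 0.81), and the calcium pump gene Atp2a2 at 1237 and 823 CPM (0.59, 0.47 to 0.71). The channel Orai1 stood at 74.6 and 57.3 CPM, with an interval that spanned 0 (0.38, −0.10 to 0.88). The members that were lower were the release channels Itpr1, at 30.5 and 54.9 CPM (−0.85, −1.43 to −0.26), and Itpr2, at 213 and 241 CPM (−0.18, −0.42 to 0.07). Itpr1 was in use through Lipo-PBS alone.

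Ion and acid-base transport differed less. Of 33 measured genes, 17 were in use, 11 were higher in Lipo-Clo and 6 lower, with a median log2 ratio of 0.16 (0.13 in sub-states 1 to 5), which became −0.02 with the limit on the rule genes at 5% of UMIs. The phosphate transporter Slc34a2 stood at 194 CPM in Lipo-Clo against 104 CPM for Lipo-PBS, with a log2 ratio of 0.90 (0.56 to 1.25). Slc24a4 differed by 0.26 (0.12 to 0.41) and by −0.03 with sub-states held at equal proportions in the libraries. Cftr differed by 0.20 (0.04 to 0.37) and Wdr72 by 0.16 (0.01 to 0.31). Trpm7, a divalent cation channel, stood at 1572 and 1268 CPM (0.31, 0.21 to 0.41). The bicarbonate cotransporter Slc4a4 was lower, at 62.0 and 88.8 CPM (−0.52, −0.95 to −0.08), and so was the potassium channel Kcnk1, at 199 and 241 CPM (−0.27, −0.52 to −0.02). The proton pump subunits, which acidify lysosomes, had 14 of 15 genes in use higher and a median of 0.30. Their largest ratio was that of Atp6ap1, at 137 and 80.6 CPM (0.76, 0.38 to 1.17), and Atp6v0c stood at 1723 and 1106 CPM (0.64, 0.53 to 0.75).

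**Figure D5:**
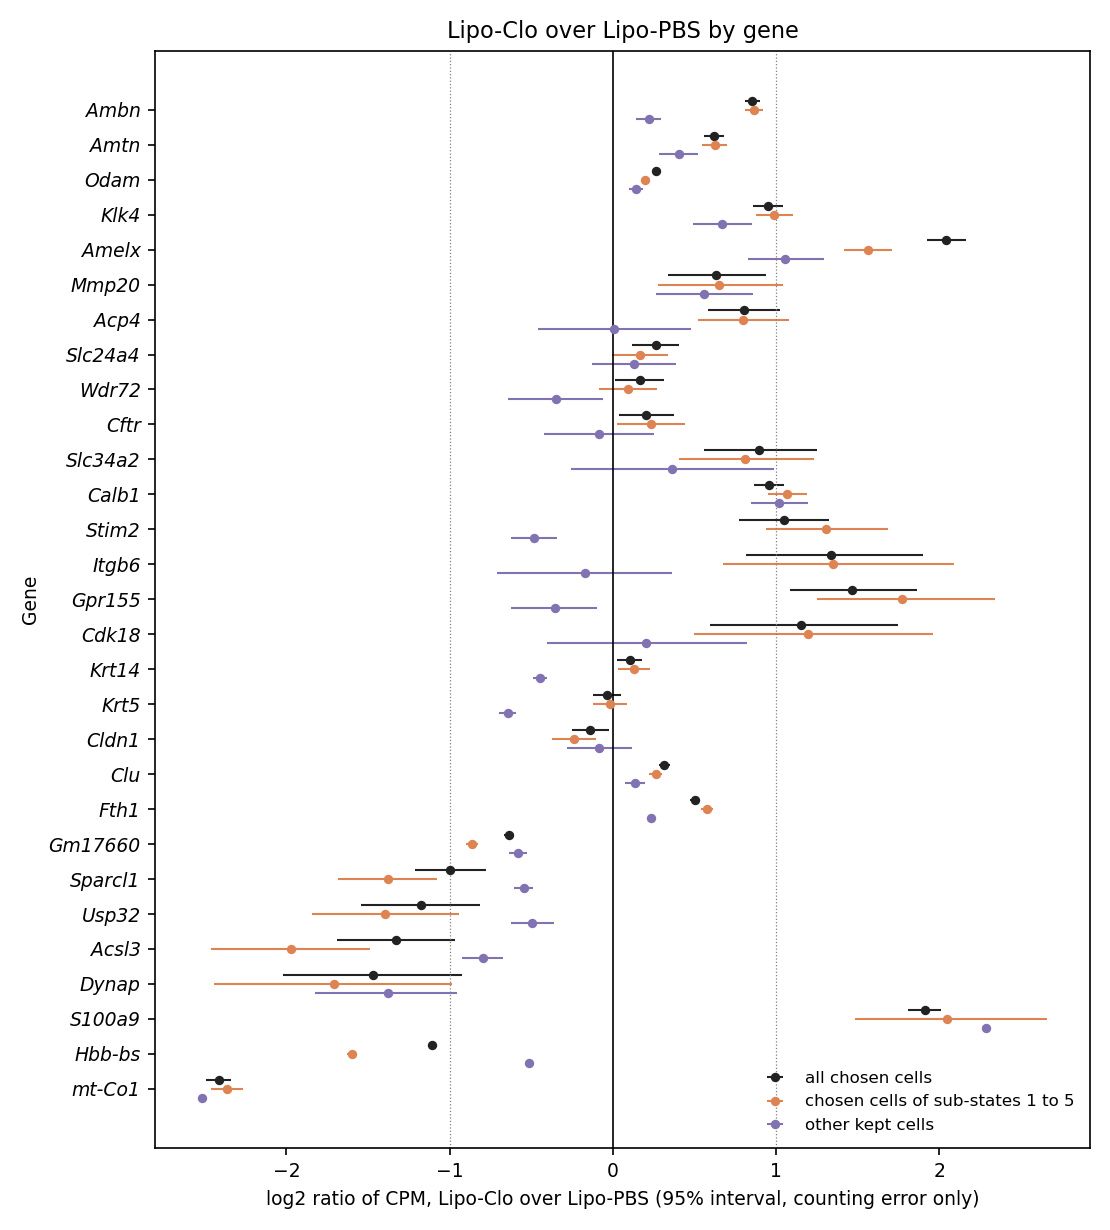
Log2 ratio of CPM, Lipo-Clo over Lipo-PBS, with 95% intervals for counting error, for 29 genes in all chosen cells, in sub-states 1 to 5 and in the other kept cells, with dotted lines at 2-fold. Amelx lies furthest right among the enamel genes, at 2.04 in all chosen cells and 1.56 in sub-states 1 to 5, the keratins lie near 0 in the chosen cells but lower in the other cells, and mt-Co1 is low in all 3.

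Keratins, junction and basement membrane genes had medians near 0. Of 20 measured keratins 5 were in use, with a median log2 ratio of −0.04 that was 0.02 with TMM factors. Krt14 stood at 2481 CPM in Lipo-Clo against 2310.5 CPM for Lipo-PBS (0.10, 0.03 to 0.18), and Krt5 at 1916 and 1965 CPM (−0.04, −0.12 to 0.05). In the other kept cells Krt5 was lower in Lipo-Clo (−0.65). The keratins with the largest ratio were Krt10, of differentiating keratinocytes, at 60.4 and 37.4 CPM (0.69, 0.12 to 1.30, and 1.23, 0.29 to 2.30, in sub-states 1 to 5), and Krt6a, at 296 and 351 CPM (−0.24, −0.45 to −0.04). Krt10 was in use through Lipo-Clo alone. Epithelial junction genes had 13 higher and 9 lower of 22 in use and a median of 0.06, which was −0.01 when totals left out mitochondrial, haemoglobin and ribosomal protein genes. The gap junction gene Gja1 stood at 736 and 499 CPM (0.56, 0.40 to 0.72) and the desmosomal cadherin Dsc2 at 35.7 and 65.4 CPM (−0.87, −1.41 to −0.34). Hemidesmosome and basement membrane genes had 9 higher and 9 lower of 18, with a median of −0.01 (0.04 with TMM factors). The integrin chain Itga6 stood at 1169 and 1013 CPM (0.21, 0.09 to 0.32) and its partner Itgb1 at 656 and 767 CPM (−0.23, −0.36 to −0.09). Col4a1, a basement membrane collagen, stood at 70.9 and 144 CPM (−1.02, −1.38 to −0.66), and at −0.46 (−1.73 to 0.90) in sub-states 1 to 5.

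Transcription factors of ameloblasts and epithelium had 12 higher and 7 lower of 19 in use and a median of 0.11. Runx2 stood at 1143 and 1059 CPM (0.11, −0.00 to 0.22) and Foxo1 at 673 and 642 CPM (0.07, −0.08 to 0.21). Sp7 stood at 57.8 and 36.2 CPM (0.67, 0.09 to 1.30) and Trps1 at 67.2 and 119 CPM (−0.83, −1.21 to −0.44). Sp7 was in use through Lipo-Clo alone. Trps1 is more abundant in the other cells of the series than in the chosen ones.

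Iron genes were led by the chains of ferritin, which stores iron in cells. Fth1 stood at 26194 CPM in Lipo-Clo against 18512 CPM for Lipo-PBS (0.50, 0.48 to 0.53), and Ftl1 at 6294 and 5032 CPM (0.32, 0.27 to 0.37). The list itself had 4 higher and 4 lower of 8 in use and a median of −0.02, which was 0.03 with TMM factors and 0.39 in sub-states 1 to 5. Genes of endocytosis and lysosomes had 14 higher and 9 lower of 23, with a median of 0.14, and the lysosomal protease gene Tpp1 stood at 105 and 67.8 CPM (0.63, 0.20 to 1.08). The most abundant members were Lamp1, a lysosomal membrane protein, at 499.8 and 511 CPM (−0.03, −0.20 to 0.14), and Cd63, at 479 and 366 CPM (0.39, 0.20 to 0.58). The largest ratio was that of Ctsa, a lysosomal carboxypeptidase, at 52.0 and 32.7 CPM (0.67, 0.05 to 1.33), which was in use through Lipo-Clo alone.

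Signalling genes lay on both sides of 0. TGF-β ligands, receptors and responders had 7 higher and 13 lower of 20 in use and a median of −0.13. Tgfb1 stood at 424 and 358 CPM (0.25, 0.05 to 0.44), Itgb6 was the largest higher member, Id3 stood at 424 and 478 CPM (−0.17, −0.35 to 0.00), and the responder Id1 stood at 29.4 and 52.6 CPM (−0.84, −1.43 to −0.24). Itgb6 was in use through Lipo-Clo alone and Id1 through Lipo-PBS alone. Hedgehog, Notch, Wnt and FGF genes had 12 higher and 8 lower of 20 and a median of 0.18. The growth factor receptor gene Igf1r stood at 1106 and 884 CPM (0.32, 0.20 to 0.45). The growth factor Bmp7 in that list stood at 193 and 109 CPM (0.83, 0.49 to 1.17), and the hedgehog receptor Ptch1 at 29.9 and 51.4 CPM (−0.78, −1.37 to −0.18). Ptch1 was also in use through Lipo-PBS alone. Signals to macrophages and osteoclasts had only 5 of 35 measured genes in use, with a median of 0.06 that was −0.01 when totals left out mitochondrial, haemoglobin and ribosomal protein genes. Among them, Anxa1, an annexin that dampens inflammation, stood at 1221 and 1291 CPM (−0.08, −0.18 to 0.02), the cytokine gene Mif at 821 and 660.3 CPM (0.31, 0.17 to 0.46), and Lgals3, a galectin, at 507 and 589 CPM (−0.22, −0.37 to −0.06).

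Few genes passed 2-fold. In all chosen cells 25 of 4280 genes in use (0.584%) were at least 2-fold higher in Lipo-Clo and 43 (1%) at least 2-fold lower, a split that was 33 and 35 with TMM factors and 16 and 52 when totals left out mitochondrial, haemoglobin and ribosomal protein genes. A gene could be in use through 1 library alone. This held for 18 of the 25, which met the limit on cells with a UMI only in Lipo-Clo, and for 23 of the 43, which met it only in Lipo-PBS. Such a limit favours genes that are higher in the library where it was met, so their number supports no direction. Of the 25, 4 came from the neutrophil list, and of the 43, 15 were mitochondrially coded or haemoglobin genes. In sub-states 1 to 5, with the same limits applied to their cells, 63 of 3564 genes were at least 2-fold higher (1.77%) and 35 at least 2-fold lower (0.982%). Here too a gene could be in use through 1 library alone, as with Sae1 (6 Lipo-PBS UMIs) and Ckb (9). The split of 63 and 35 therefore supports no direction. Of the 25 higher genes 16 (64%) were also among the 63, which is 25.4% of those. Of the 43 lower genes 20 (46.5%) were also among the 35, which is 57.1% of those. The smaller set also held fewer UMIs, 1019160 and 416084.

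Of the 25 higher genes, 12 had an interval wholly past 1.5-fold. They were the neutrophil genes Ngp, Camp, S100a8 and S100a9, with Amelx, Rab3ip, Gpr155, Lrrc8a, Itgb6, Cdk18, Ormdl2 and Stim2. Gpr155, a lysosomal cholesterol sensor, stood at 213 CPM in Lipo-Clo against 77.1 CPM for Lipo-PBS (1.46, 1.08 to 1.86). It was higher in all 4 of sub-states 1 to 5 with at least 20 of its UMIs and stood at −0.36 in the other kept cells. Lrrc8a, a subunit of the volume-regulated anion channel, stood at 54.1 and 21.0 CPM (1.36, 0.63 to 2.17). Cdk18, a cyclin-dependent kinase, stood at 83.0 and 37.4 CPM (1.15, 0.59 to 1.75), and Rab3ip, an activator of the vesicle GTPase Rab8, at 43.1 and 15.2 CPM (interval of the log2 ratio 0.65 to 2.47). Ormdl2, a regulator of sphingolipid synthesis, stood at 93.5 and 43.2 CPM (1.11, 0.59 to 1.66). Gpr155, Itgb6 and Cdk18 led sub-state 5. Of these, Rab3ip, Lrrc8a, Itgb6 and Cdk18 were in use through Lipo-Clo alone. In Lipo-PBS, Rab3ip rests on 13 UMIs, Lrrc8a on 18, Cdk18 on 32, Itgb6 on 35 and Ormdl2 on 37. With the sub-states held at equal proportions in the libraries the ratio was 0.94 for Gpr155, 0.92 for Cdk18 and 0.75 for Stim2. Among those of sub-states 1 to 5 with at least 20 UMIs, Itgb6 was higher in 1 and lower in 1 of 3. It had 22 Lipo-Clo and 0 Lipo-PBS UMIs in sub-state 4. Cdk18 was lower in 1 of 2 and had 49 and 0 UMIs in sub-state 5.

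Of the 12 lower genes with the largest ratio, 10 were not ameloblast genes by level. Pcdh7, Mfap5, Nfib, Angptl1, Thbs4, Aspn, Socs3, Prrx1, Cd34 and Slit3 were more abundant in the other kept cells than in the chosen ones. Mesenchyme markers summed to 8295 CPM in Lipo-Clo against 10225 CPM for Lipo-PBS, led by Col1a1. The rule limits Col1a1 to 2% of a cell's UMIs, so this sum is given as a description. In the Lipo-Clo cells of sub-states 1 to 5 the 10 genes named above had between 4 and 15 UMIs each. Socs3, of cytokine signalling, stood at 31.0 and 80.6 CPM (−1.38, −1.91 to −0.86) but at 0.58 (−1.34 to 3.06) in sub-states 1 to 5. All 10 were in use through Lipo-PBS alone. The exceptions by level were Acsl3 and Dynap. Acsl3, an acyl-CoA synthetase of lipid droplets, stood at 64.6 CPM in Lipo-Clo against 162 CPM for Lipo-PBS (−1.33, −1.69 to −0.97). It was lower in the 3 of sub-states 1 to 5 with at least 20 of its UMIs, at −1.97 (−2.46 to −1.49) over them all, and stood at −0.80 in the other kept cells. Dynap, in use through Lipo-PBS alone, stood at 27.8 and 77.1 CPM (−1.47, −2.02 to −0.93), was at least 12.3-fold above the other kept cells, and had a ratio of −1.38 in those. After thinning to 1000 UMIs its ratio was −0.51.

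The leading genes of sub-state 3 did not all differ the same way. Sparcl1, a matricellular protein, stood at 193 CPM in Lipo-Clo against 384 CPM for Lipo-PBS (interval of the log2 ratio −1.22 to −0.78), and in sub-states 1 to 5 at −1.38 (−1.69 to −1.08), with 4 of 4 lower among those with at least 20 UMIs. Usp32, a deubiquitinase, stood at 66.7 and 151 CPM (−1.18, −1.54 to −0.81), with −1.58 (−2.29 to −0.91) in sub-state 3, while it was higher in the 2 other sub-states among 1 to 5 with at least 20 UMIs. Ptpn22, a phosphatase, stood at 51.5 and 73.6 CPM (−0.52, −0.99 to −0.04). Gsta4, a glutathione transferase, stood at 236 and 259 CPM (−0.14, −0.37 to 0.10) and was higher in Lipo-Clo in sub-state 3, at 0.90 (0.44 to 1.36). Gm17660, a gene at least 75.8-fold above the other kept cells, stood at 11761 and 18264 CPM (−0.64, −0.66 to −0.61). It had a UMI in 65.3% and 77.4% of the cells, against 17.4% and 16.9% of erythroid cells. Its direction differed among sub-states 1 to 4, from −1.39 (−1.48 to −1.30) in sub-state 4 to 0.15 (0.09 to 0.20) in sub-state 3. In sub-state 5 Gm17660 had 436 UMIs (2058 CPM) in the 71 Lipo-Clo cells and 0 in the 7 Lipo-PBS cells. Those 7 cells held 16426 UMIs of all genes, and no fold is drawn from so few cells.

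Transcripts of other sources differed between the libraries too. Haemoglobin and other erythroid markers summed to 28622 CPM in Lipo-Clo against 60222 CPM for Lipo-PBS, with Hbb-bs the most abundant at 17718 and 38128 CPM, and all 4 members in use were lower (median −1.06, and −0.40 for the same genes in the other kept cells). Within sub-states 1 to 5 each of the 4 was lower in Lipo-Clo in 2 and higher in 3, with Hbb-bs at −1.59 in sub-state 2, −3.21 in sub-state 3 and 2.15 in sub-state 5. All 12 mitochondrially coded genes in use were at least 2-fold lower in Lipo-Clo, with a median of −2.26 and −2.23 in the other kept cells. Neutrophil markers summed to 7417 and 1696 CPM, led by S100a9, and all 4 in use were at least 2-fold higher (median 2.67, and 2.17 in the other kept cells). In erythroid cells S100a9 stood at 3153 and 1760 CPM. Mesenchyme markers had 9 of 9 in use lower (median −0.35), with a median that was 0.29 at a limit of 5% on the rule genes. They include Col1a1, which the rule limits to 2% of a cell's UMIs, so this count and median are a description. Odontoblast and osteoblast markers had 3 of 3 higher (median 0.16), led by Bglap2 at 735 and 536 CPM. The defining markers of the other lists were low. Macrophage markers summed to 771 and 425 CPM with Fcer1g alone in use. They stood at 104 times the median in sub-state 7, and their summed log2 ratio of 0.86 was −0.05 (−0.80 to 0.74) in sub-states 1 to 5. Endothelial and mural markers summed to 374 and 573 CPM with Acta2 alone in use, glial markers to 193 and 235 CPM with Ncam1 alone in use, lymphocyte markers to 124 and 200 CPM with none in use, and oral keratinocyte markers to 500 and 652 CPM with 3 in use. Their part in the differences of the enamel genes was not tested.

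Stress and housekeeping lists gave the remaining values. Genes that respond to tissue dissociation had 23 of 25 in use lower in Lipo-Clo, with a median of −0.54 (−0.25 in sub-states 1 to 5 and −0.30 in the other kept cells). The stress factor Atf3 stood at 153 and 334 CPM (−1.13, −1.37 to −0.89). Nuclear-coded genes of oxidative phosphorylation had 74 of 77 higher and a median of 0.25, and cytosolic ribosomal proteins 75 of 80 and 0.18. The medians in the other kept cells were 0.26 for both. Unfolded protein genes had a median of 0.03 (−0.01 with DESeq2 size factors). The chaperone gene Hspa5 stood at 281 and 280.5 CPM (0.00, −0.22 to 0.23), Edem1, of the disposal of misfolded proteins, at 69.8 and 47.9 CPM (0.54, 0.03 to 1.09), and the stress sensor Ern1 at 46.2 and 61.9 CPM (−0.42, −0.93 to 0.10).

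Growth and death genes depended on which cells were counted. Cell cycle genes had 6 of 31 in use, 5 higher and 1 lower, with a median of 0.44 that was 0.27 in sub-states 1 to 5 and 0.60 in the other kept cells, and lay between 0.09 and 0.75 over the alternatives. Hmgb2, a chromatin protein of dividing cells, stood at 185 and 108 CPM (0.79, 0.45 to 1.13) but at −0.01 (−0.95 to 1.00) in sub-states 1 to 5. Mcm7, of the replicative helicase, was in use through Lipo-Clo alone and stood at 37.8 and 19.9 CPM (0.93, 0.15 to 1.78). The tubulin gene Tubb5 stood at 303 and 208 CPM (0.54, 0.30 to 0.80). Cell death and p53 targets had 4 higher and 11 lower of 15 in use, with a median of −0.15 that was −0.01 in sub-states 1 to 5. The cell cycle inhibitor Cdkn1a stood at 1006 and 965 CPM (0.06, −0.06 to 0.18), and Sesn1, a p53 target, at 40.4 and 69.0 CPM (−0.77, −1.28 to −0.26) and −0.21 (−0.91 to 0.52) in sub-states 1 to 5.

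Immune and clock genes were few. MHC class I and interferon genes had 8 higher and 1 lower of 9 in use, with a median of 0.19 that was −0.05 in thinned cells. Their largest ratios were those of B2m, the light chain of MHC class I, at 140.2 and 93.5 CPM (0.58, 0.22 to 0.96), and Ifitm3, an interferon-induced membrane protein, at 319 and 234 CPM (0.45, 0.21 to 0.69). In sub-states 1 to 5 Ifitm3 stood at −0.29 (−1.15 to 0.61). Clock genes had 1 higher and 4 lower of 5 in use, with a median of −0.21 that was 0.14 with the limit on the rule genes at 5%. Clock itself stood at 74.0 and 117 CPM (−0.66, −1.04 to −0.27) and Per3 at 45.7 and 29.2 CPM (0.64, −0.01 to 1.35). Per3 was in use through Lipo-Clo alone.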

How the data were processed

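Single-cell RNA libraries had been made on the 10x Genomics platform and read on a NovaSeq X Plus instrument. Raw UMI counts were deposited by the authors per gene and cell for 34285 genes, with no normalization. The matrix headers name Cell Ranger 8.0.0, while the submitters' processing notes name Cell Ranger 3.1.0, Seurat 3.1.1 and the GRCm39 (mm39) build, so the version used is not settled and no coordinates are given. The deposited counts comprise 9362 Lipo-Clo cells with 31053404 UMIs and 9653 Lipo-PBS cells with 30537834 UMIs. After the limits on genes and mitochondrial UMIs 8886 and 8894 cells were kept.

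The members and lists were chosen with earlier results of these data known. Counts were summed over the chosen cells per library and divided by their total (CPM). Ratios carry exact conditional Poisson intervals. With 1 library per condition no p-value was computed, and the genes at least 2-fold apart were counted by size alone. Doublets were kept. Scrublet (scanpy 1.11.5) called 0 and 1 cells by its own threshold, so its highest scores, 632 and 633 cells, were used as an alternative. Cells were scaled to 10000, log-transformed and clustered with leidenalg 0.10.2, all kept cells at resolution 1 (2000 variable genes, 30 components, 20 neighbours) and the chosen cells at 0.5 (1500 genes, 15 components, 15 neighbours), without batch correction. Other epithelial cells had at least 5 UMIs and 0.5% of UMIs on Krt5 and Krt14, and erythroid cells at least 20% on haemoglobin genes, with chosen cells left out of both.

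Named genes were drawn from the rule genes, the 2 most abundant genes of each of 32 lists (9 of them cell type markers) and its 2 with the largest ratio, the 12 each way with the largest ratio whose interval lay past 1.5-fold (mitochondrial and haemoglobin genes left out), the 15 with the largest fold over other cells, and 5 leading genes of each sub-state. Not every gene so drawn is printed. Others were named as fixed markers, or as further members of a list after their values were seen. Alternatives used edgeR 4.0.16 (TMM) and DESeq2 1.42.0 (size factors), other totals, thinning, other limits and other sets of cells. The interval code was tested on simulated data. Some genes of the lists are not reported here.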

Additional observations from a re-analysis of the deposited data

How the results depend on the processing

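Without a replicate, all values describe 1 library per condition, and p-values were not computed. No paired analysis was possible because a single library stands for each condition. The log2 ratio of the share of chosen cells stayed positive under all 11 alternatives and moved beyond its counting interval with the limit on the rule genes at 5% (1.60) and with Odam left out of the rule (1.71). The count of genes at least 2-fold higher, 25 in the report, was 16 with totals that left out mitochondrial, haemoglobin and ribosomal protein genes, 45 with the mean over scaled cells, 69 with the limit at 5%, 39 without Scrublet calls and 63 in sub-states 1 to 5. The count at least 2-fold lower, 43 in the report, was 70 without Scrublet calls. The pair of counts was 33 and 35 with TMM factors. With all genes of at least 20 UMIs the counts were 310 and 321, at 1.5-fold 207 and 194, and at 3-fold 5 and 14. The other alternatives kept both counts within 1.5 times. Of the genes past 2-fold that are named, the ratio turned sign in Nfib (0.085), Socs3 (0.33), Aspn (0.60), Col4a1 (0.29) and Enam (−1.47) with the limit at 5%, in Socs3 (0.58), Tyrobp (−0.40) and Enam (−0.56) in sub-states 1 to 5, and in Enam (−0.35) without the 5 cells with most Amelx in each library. Sub-states 1 to 5 and the removal of those cells were chosen after seeing the data. The Amelx ratio lay between 1.46 and 2.22, and those of Gpr155, Stim2, Itgb6, Cdk18, Ormdl2, Rab3ip and Lrrc8a went below 2-fold under at least 1 alternative, to 0.94, 0.75, 0.66, 0.92, 0.75, 0.992 and 0.997. Of the 12 lower genes, Dynap (−0.51) and Angptl1 (−0.90) did so in thinned cells, Slit3 (−0.29), Thbs4 (−0.37) and Cd34 (−0.37) with the limit at 5%, and Prrx1 (−0.98) with sub-states held at equal proportions, beside Nfib, Socs3 and Aspn above. No scaling moved the median over the genes in use by more than 0.08. The cause of these changes, and the part in them of the fewer UMIs of the Lipo-PBS cells, was not tested.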
